A study of Mus musculus with 10 samples.

Results

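The 10 genes followed here, whose activity marks hematopoietic stem cells and multipotent progenitors, were measured in sorted granulocyte-macrophage progenitors (GMPs): *Cd34*, *Hlf*, *Mecom*, *Ly6a*, *Mllt3*, *Mn1*, *Angpt1*, *Sox4*, *Adgrg1*, and *Esam*. They were chosen by name, with earlier results of these data known, as 10 of the 51717 genes with a summed value. Counts, shares, and unadjusted p-values over these genes are therefore a description. RNA came from male C57Bl6/N bone marrow, from 5 WT samples (ROSA26 CreER+/-) and 5 recent *Mpc2* KO samples (Mpc2fl/fl; ROSA26 CreER+/-), and both groups ate tamoxifen chow for 2 wk up to the harvest. No ages were given. The cells were the CD45.2+ donor fraction of chimeras, in which donor marrow carrying these alleles had been transplanted into irradiated CD45.1 hosts. The paper describes its recent KO group as mixed chimeras that also received WT CD45.1 marrow, while its RNA-seq methods say only chimeras. Full chimeras made with *Mpc2* KO marrow alone did not survive 2 wk of tamoxifen in the paper. CreER is expressed from the ROSA26 locus in all donor-derived cells, so that the stem cells and multipotent progenitors from which GMPs arise could carry the deletion too. Each WT library was made from 1 mouse, whereas a recent KO library pooled 2 mice, so that 10 mice stood behind the 5 recent KO libraries.

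Hematopoietic stem cells and multipotent progenitors stand at the top of blood formation and are kept there by transcription factors such as HLF, MECOM, and the MLL partner MLLT3. As cells commit to the granulocyte and monocyte lineages, they switch these factors off and lose stem cell surface proteins such as Sca-1 (the product of *Ly6a*) and ESAM, while CD34 remains on GMPs. MPC2 is a subunit of the carrier that brings pyruvate into mitochondria. The GMP gate of the study took c-Kit+ Sca-1- FcγR+ CD34+ cells, after CD27+ cells had been enriched with beads. The proteins of *Cd34* and *Ly6a* had thus been used to choose the cells, as had that of *Cd27*, which is named below. The transcript levels of these genes describe cells already selected by them.

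The libraries held 14033776 to 19745405 estimated reads. *Mpc2* itself measured 60.9 to 117 normalized CPM (estimated reads scaled to the normalized library total) in WT samples and 17.1 to 43.9 CPM in recent KO samples. Its log2 fold change was −1.46 (adjusted p = 0.0156 by edgeR), so the deleted gene went with the label of each sample. As a check of the cell type, the summed level of 19 GMP markers was 93605 to 131539 CPM in WT samples, and it was 54740 to 95675 CPM after the deletion. Those markers were led by *Mpo*, the gene of myeloperoxidase, at 51593 to 69039 and 31826 to 52804 CPM. The floor used here, 3 counts, corresponded to 0.147 to 0.233 CPM, which covers counting error only, as the amplified cDNA had no molecular identifiers.

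Per transcript length, the 10 genes spanned a wide range of levels in WT GMPs. *Cd34*, a sialomucin of the cell surface, stood highest with 81.0 ± 21 TPM (length-scaled transcript abundance; SD, n = 5). It exceeded 88.5% of the genes tested. *Adgrg1*, an adhesion G protein-coupled receptor also known as GPR56, followed with 22.7 ± 6.38 TPM. *Ly6a* stood at 13.1 ± 2.39 TPM, and the ranges of *Adgrg1* and *Ly6a* overlapped in WT samples. *Sox4*, an SRY-box transcription factor of progenitors, held 6.34 ± 1.81 TPM, below *Ly6a* in all 10 samples. *Angpt1*, the secreted ligand of the receptor TIE2, held 1.97 ± 0.625 TPM. *Mllt3* (1.19 ± 0.897 TPM) and *Hlf* (1.11 ± 0.302 TPM) did not differ beyond their spread, and *Hlf* was the higher of this pair in 8 of 10 samples. *Mecom* (0.561 ± 0.206 TPM) was lower than *Hlf* in 10 of 10 samples. The endothelial and stem cell adhesion protein gene *Esam* (0.156 ± 0.0877 TPM) and the transcriptional coactivator gene *Mn1* (0.0125 ± 0.0117 TPM) were close to absent.

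**Figure D1:**
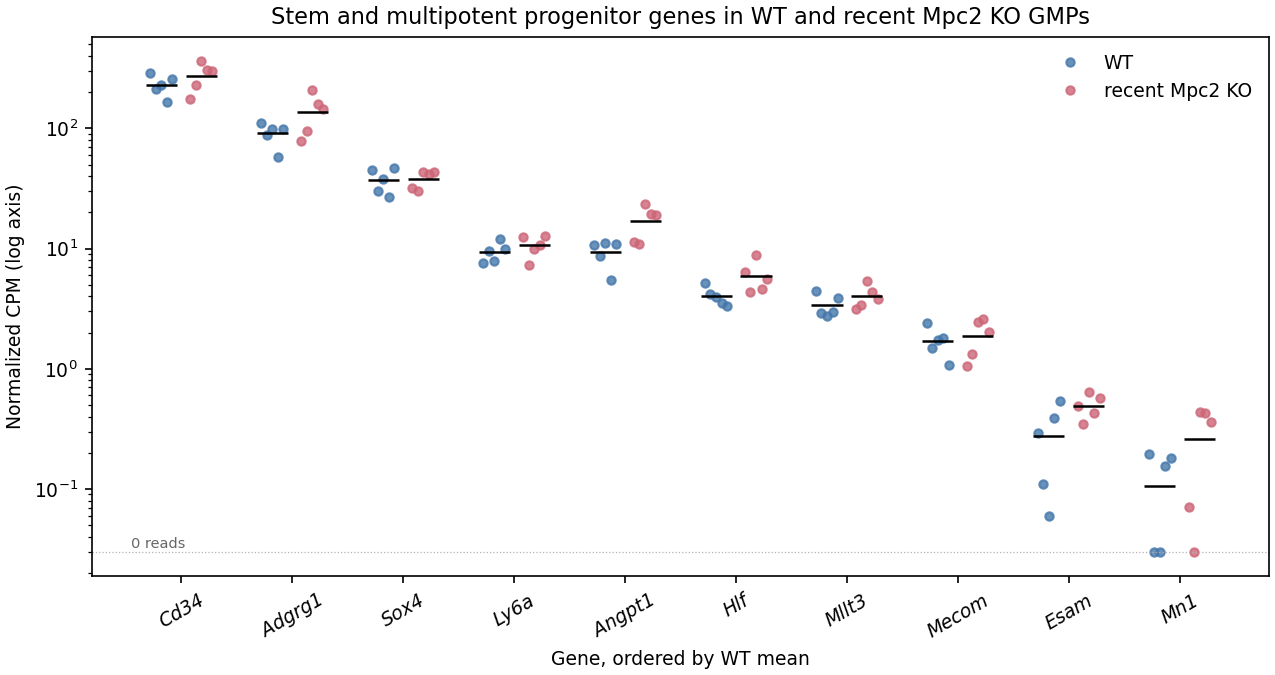
Normalized CPM (log axis) of the 10 genes in each of 5 WT and 5 recent *Mpc2* KO samples, with a black line at the mean of each group; points on the dotted line had 0 reads. The levels run from over 100 CPM for *Cd34* to under 1 CPM for *Esam* and *Mn1*, and WT and recent KO samples overlap for each gene.

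The test of recent KO against WT GMPs (edgeR, quasi-likelihood) covered 12381 genes and took in 8 of the 10 genes. *Esam* (1 to 13 reads per sample) and *Mn1* (0 to 9 reads) were below the count filter. At an adjusted p under 0.05, 0 of the 8 genes passed, where 0.331% of all genes tested did. At an unadjusted p under 0.05, 3 of the 8 passed (*Angpt1*, *Hlf*, and *Adgrg1*), all with a higher level in recent KO samples, against 4.89% of all genes tested in that direction. Without recent KO replicate 3 it was 1 of 8, and with the replicate block 3 of 8. The log2 fold change was above 0 for 8 of 8 genes, with a median of 0.26, whereas it was above 0 for 49.6% of all genes tested, with a median of −0.0018. The groups of samples did not separate for any of the 8 genes, while they did for 2.43% of all genes tested. DESeq2 gave 1 call among the 10 genes (*Angpt1*, adjusted p = 0.0217), where it called 156 of 14360 genes tested. Limma on TPM gave 0 calls among 7 genes, where it called 25 of 10333 genes on log2(TPM + 1) and 24 on log2(TPM + 0.1). In bulk samples, fewer cells of a type and less RNA per cell cannot be told apart.

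**Figure D2:**
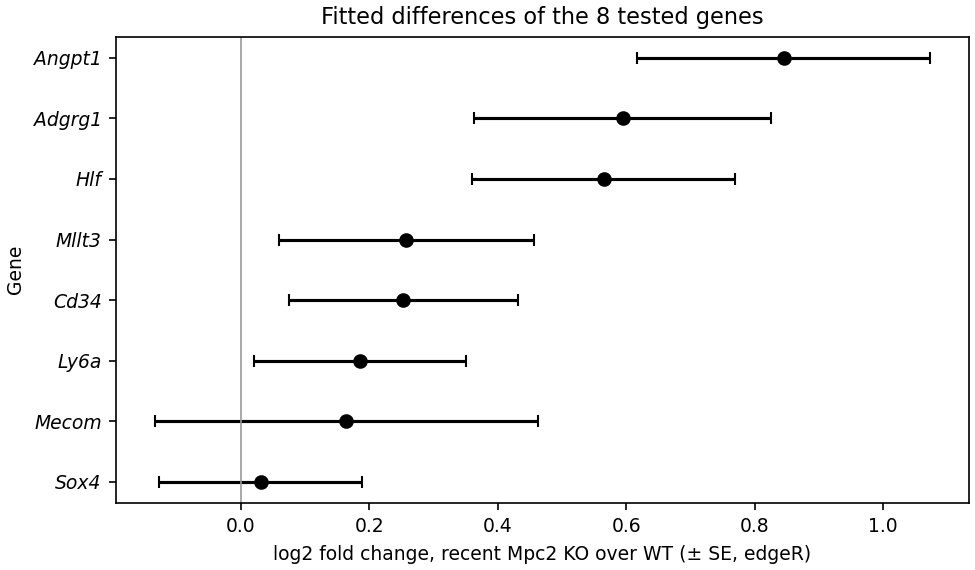
Log2 fold change of recent *Mpc2* KO over WT with its standard error from edgeR for the 8 tested genes. *Angpt1*, *Adgrg1*, and *Hlf* lie farthest above 0, between 0.57 and 0.85, and *Sox4* lies at 0.03.

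Of the surface proteins, *Cd34* (ENSMUSG00000016494) lies on chromosome 1 of GRCm38 from 194938819 to 194961279, on the plus strand. In WT replicates 1 to 5 it measured 291, 214, 229, 165, and 256 CPM, and in recent KO replicates 1 to 5 it measured 175, 232, 362, 309, and 298 CPM. Recent KO replicates 3 to 5 lay above the highest WT sample, and recent KO replicate 1 lay near the lowest. The group values were 231 ± 47.4 and 275 ± 72.7 CPM (SD, n = 5 each), and edgeR gave a log2 fold change of 0.25 ± 0.178 (SE; adjusted p = 0.687). The difference was smaller than the spread between replicates. Reads of *Gm16897*, an antisense gene that overlaps *Cd34* exons, reached at most 0.928 CPM.

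*Adgrg1* (ENSMUSG00000031785, chromosome 8, 94974751 to 95014217, plus strand) followed a like order of samples. WT replicates 1 to 5 had 111, 88.0, 99.2, 57.7, and 99.0 CPM, and recent KO replicates 1 to 5 had 78.4, 96.0, 209, 158, and 145 CPM. Again recent KO replicates 3 to 5 were above all WT samples, while recent KO replicates 1 and 2 lay within the WT range. The log2 fold change was 0.59 ± 0.232 (SE), or 1.51-fold, with an unadjusted p of 0.0227 and an adjusted p of 0.399 by edgeR. An exact two-sided permutation test of the 5 against 5 samples gave p = 0.111. Without a filter on low counts, the adjusted p by edgeR was 0.0430, under the threshold, although the log2 fold change was still 0.60.

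*Ly6a* (ENSMUSG00000075602, chromosome 15, 74994877 to 74998031, minus strand) encodes Sca-1, for which the sorted cells were negative. It measured 7.59, 9.54, 7.84, 12.1, and 9.88 CPM in WT replicates 1 to 5 and 12.5, 7.27, 9.87, 10.8, and 12.7 CPM in recent KO replicates 1 to 5. The groups overlapped throughout, and edgeR gave a log2 fold change of 0.19 ± 0.165 (SE; adjusted p = 0.780). Its transcripts are 82.3% to 85.6% identical over aligned stretches to those of *Ly6c1*, *Ly6c2*, *Ly6f*, *Ly6g*, and *Ly6i*, of which *Ly6c2* reached 3375 CPM, so that the estimate for *Ly6a* is uncertain. *Esam* (ENSMUSG00000001946, chromosome 9, 37528078 to 37538319, plus strand) measured 0.294, 0.111, 0.0594, 0.389, and 0.539 CPM in WT replicates 1 to 5, from 1 to 9 reads. In recent KO replicates 1 to 5 it measured 0.492, 0.350, 0.635, 0.426, and 0.567 CPM, from 5 to 13 reads. These overlapping values gave p = 0.0794 in the exact two-sided permutation test, and a difference was not detectable at this depth.

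The ligand gene *Angpt1* (ENSMUSG00000022309, chromosome 15, 42424723 to 42676977, minus strand) had the largest log2 fold change among the 8 genes. Angiopoietin 1 is made by stem cells and progenitors as well as by stromal cells of the marrow. WT replicates 1 to 5 had 10.7, 8.76, 11, 5.44, and 11 CPM, and recent KO replicates 1 to 5 had 11.5, 10.8, 23.4, 19.4, and 19.2 CPM. Here 4 of 5 recent KO samples lay above the highest WT sample, and recent KO replicate 2 lay just under it. The log2 fold change was 0.85 ± 0.228 (SE), or 1.80-fold. The unadjusted p was 0.00243, and the adjusted p was 0.191 by edgeR. The exact two-sided permutation p was 0.0238, where 5 samples against 5 allow no p below 0.00794. The adjusted p passed the threshold with DESeq2 (0.0217) and without a filter on low counts (edgeR, 0.00316), and over all alternatives except the samples left out it ranged from 0.00316 to 0.383. Reads of *Gm17473*, an antisense gene that overlaps *Angpt1* exons, reached at most 1.13 CPM, and without strand the reads of a gene and its antisense partner cannot be told apart.

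Among the transcription factors, *Hlf* (ENSMUSG00000003949, chromosome 11, 90336536 to 90390895, minus strand), a PAR bZIP factor of stem cells, measured 5.19, 4.16, 3.98, 3.50, and 3.35 CPM in WT replicates 1 to 5. Recent KO replicates 1 to 5 had 6.40, 4.34, 8.89, 4.63, and 5.62 CPM. Recent KO replicates 1, 3, and 5 were above all WT samples. The log2 fold change was 0.57 ± 0.205 (SE), with an unadjusted p of 0.0158 and an adjusted p of 0.358 by edgeR. The exact two-sided permutation p was 0.0397. Over the other settings, apart from samples left out, the log2 fold change ranged from 0.18 to 0.63. The unadjusted p was 0.227 with the offset for transcript length (edgeR). By limma it was 0.268 on log2(TPM + 1) and 0.273 on log2(TPM + 0.1). Without recent KO replicate 3 it was 0.0625 (edgeR). Of its 869 reads in all 10 samples, 58.2% were assigned to Hlf-201, which encodes 295 residues, and 37.0% to Hlf-203, a transcript without a coding region.

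*Mecom* (ENSMUSG00000027684, chromosome 3, 29951296 to 30548008, minus strand), the zinc finger gene that gives rise to EVI1 and MDS1-EVI1, was low. It measured 2.40, 1.5, 1.72, 1.79, and 1.08 CPM in WT replicates 1 to 5 and 1.05, 1.33, 2.44, 2.62, and 2.01 CPM in recent KO replicates 1 to 5. The groups overlapped almost completely, and edgeR gave a log2 fold change of 0.16 ± 0.298 (SE; adjusted p = 0.902). With an offset for transcript length, the log2 fold change was −0.14. Its 312 reads over all samples were spread over Mecom-207 (26.4%), Mecom-212 (25.5%), Mecom-203 (23.4%), and Mecom-211 (13.2%), of which Mecom-212 has the longest coding region of these, 1051 codons, from the distal start.

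*Sox4* (ENSMUSG00000076431, chromosome 13, 28948919 to 28953713, minus strand) measured 45.5, 30.3, 37.6, 27, and 47.0 CPM in WT replicates 1 to 5 and 31.9, 30.2, 43.8, 41.6, and 43.8 CPM in recent KO replicates 1 to 5. No recent KO sample lay above the highest WT sample. The log2 fold change was 0.03 ± 0.158 (SE; adjusted p = 0.968 by edgeR) and took the other sign when any of 5 samples was left out. Its transcript shares 2616 bases with *Gm26735*, a noncoding gene on the opposite strand, which was not analysed here. *Mllt3* (ENSMUSG00000028496, chromosome 4, 87769925 to 88033364, minus strand), whose product AF9 belongs to the super elongation complex, measured 4.41, 2.94, 2.73, 2.95, and 3.89 CPM in WT replicates 1 to 5. Recent KO replicates 1 to 5 had 3.16, 3.43, 5.42, 4.38, and 3.81 CPM. The groups overlapped, and edgeR gave a log2 fold change of 0.26 ± 0.199 (SE; adjusted p = 0.733), and the sign turned with an offset for transcript length (−0.40) and on TPM.

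*Mn1* (ENSMUSG00000070576, chromosome 5, 111417362 to 111457033, plus strand) encodes a coactivator that is active in early progenitors and in leukemia. WT replicates 1 to 5 had 4, 0, 0, 2, and 3 reads, and recent KO replicates 1 to 5 had 1, 0, 9, 7, and 7 reads. The reads came to 0.106 ± 0.0980 CPM in WT samples and 0.259 ± 0.208 CPM in recent KO samples (SD, n = 5 each). Most samples were at or under the floor of 3 counts, and no difference was detectable at this depth (exact two-sided permutation test, p = 0.175).

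Several of the 8 tested genes were high or low in the same samples. To compare samples within groups, log2 CPM was centered on the mean of each group, and Pearson's r was taken over the 10 samples for each of the 28 pairs of genes. The median r was 0.50, and 21 of 28 pairs were above 0. Over all pairs of the 12381 genes tested, the median was −0.00080, 49.9% of pairs were above 0, and 10.6% of pairs were above the median of the 28. The median over the 28 pairs was 0.38 among WT samples alone and 0.82 among recent KO samples alone.

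Recent KO replicate 3 was the highest of its group for 6 of the 8 genes, and WT replicate 1 for 5. WT replicate 4 was the lowest of its group for 4 genes. Recent KO replicates 1 and 2 were the lowest for 4 genes each, and recent KO replicate 2 lay below its group mean for all 8. *Ly6a* went another way, with WT replicate 4 the highest of its group, and for *Hlf* recent KO replicate 1 lay above and recent KO replicate 4 below the group mean.

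**Figure D3:**
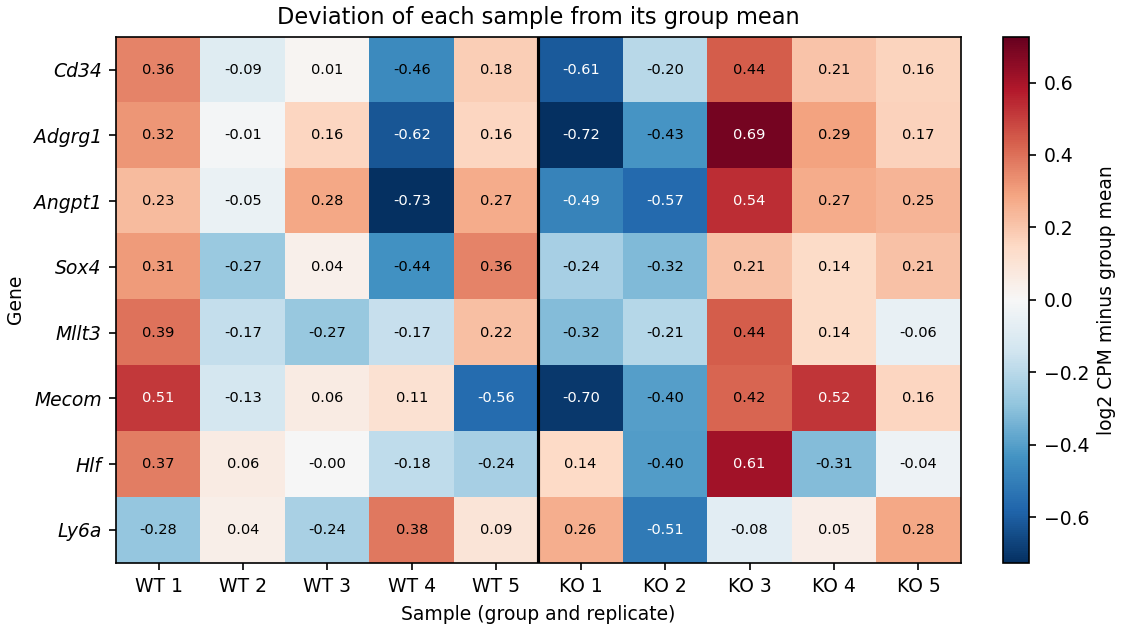
Log2 CPM of each sample minus the mean of its group for the 8 tested genes, with samples in columns, genes in rows, red above and blue below the group mean. *Cd34*, *Adgrg1*, *Angpt1*, and *Sox4* share low values in WT replicate 4 and recent KO replicates 1 and 2 and high values in WT replicate 1 and recent KO replicate 3, whereas *Ly6a* does not share the pattern.

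The pair in closest agreement was *Cd34* with *Adgrg1*, with r = 0.971 (exact permutation test within groups over 14400 arrangements, p = 0.000139, adjusted over the 28 pairs 0.00389). Its Spearman's rho was 0.964 (exact permutation p = 0.000347, adjusted 0.00972). Without recent KO replicate 1 and WT replicate 4, the samples farthest from the median of *Cd34*, r was 0.926. *Angpt1* with *Adgrg1* had r = 0.957 (exact permutation p = 0.00146, adjusted 0.0113) and rho = 0.782 (exact permutation p = 0.0184, adjusted 0.0756), and r = 0.969 without the 2 farthest samples. *Cd34* with *Angpt1* had r = 0.904 (exact permutation p = 0.00229, adjusted 0.0113) and rho = 0.770 (exact permutation p = 0.0216, adjusted 0.0756), and r = 0.841 without the 2 farthest samples. These top pairs thus joined a surface sialomucin, an adhesion receptor, and a secreted ligand. In all, 8 of 28 pairs had an adjusted p under 0.05 for r and 3 for rho, and each of the 8 was among *Cd34*, *Adgrg1*, *Angpt1*, *Sox4*, and *Mllt3*. The share that passes over all pairs of genes tested was not computed, so these counts only describe the 28 pairs.

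*Ly6a* stood apart, with r below 0 in 7 of its 7 pairs. The lowest pair was *Cd34* with *Ly6a*, with r = −0.352 (exact permutation p = 0.362, adjusted 0.488) and rho = −0.333 (exact permutation p = 0.381, adjusted 0.612). Without the 2 samples farthest for *Cd34* this r was 0.309. *Ly6a* with *Adgrg1* had r = −0.275 (exact permutation p = 0.498, adjusted 0.606) and rho = −0.358 (exact permutation p = 0.344, adjusted 0.612), and r = −0.538 without the 2 farthest samples. *Ly6a* with *Mllt3* had r = −0.168 (exact permutation p = 0.650, adjusted 0.736) and rho = −0.0667 (exact permutation p = 0.873, adjusted 0.873), and r = −0.388 without the 2 farthest samples. None of these negative values passed, and the relation of *Ly6a* to the others could not be told from none. *Hlf* had a median r of 0.37 with the other genes, and its r with *Mllt3* turned from 0.482 to −0.533 without recent KO replicate 3 and WT replicate 1, so its agreement rests on those samples.

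The order of samples was also compared with library size. The group-centered log2 of the estimated reads per library had r = 0.847 with *Angpt1* (exact permutation p = 0.00792, adjusted over 16 relations 0.0633) and rho = 0.661 (exact permutation p = 0.0637, adjusted 0.204). *Adgrg1* had r = 0.845 with it (exact permutation p = 0.00785, adjusted 0.0633) and rho = 0.842 (exact permutation p = 0.00840, adjusted 0.134). *Cd34* had r = 0.790 (exact permutation p = 0.0158, adjusted 0.0844) and rho = 0.770 (exact permutation p = 0.0230, adjusted 0.184). Without the 2 libraries farthest from the median total, r was 0.715, 0.716, and 0.639 for these 3 genes. In all, 7 of the 8 genes had r above 0.5 with the library total, against 11.4% of all genes tested, and *Ly6a* had r = −0.166 (exact permutation p = 0.672, adjusted 0.717) and rho = −0.309 (exact permutation p = 0.415, adjusted 0.533). CPM is scaled to library size, and the part of library size in the agreement of these genes was not tested.

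**Figure D4:**
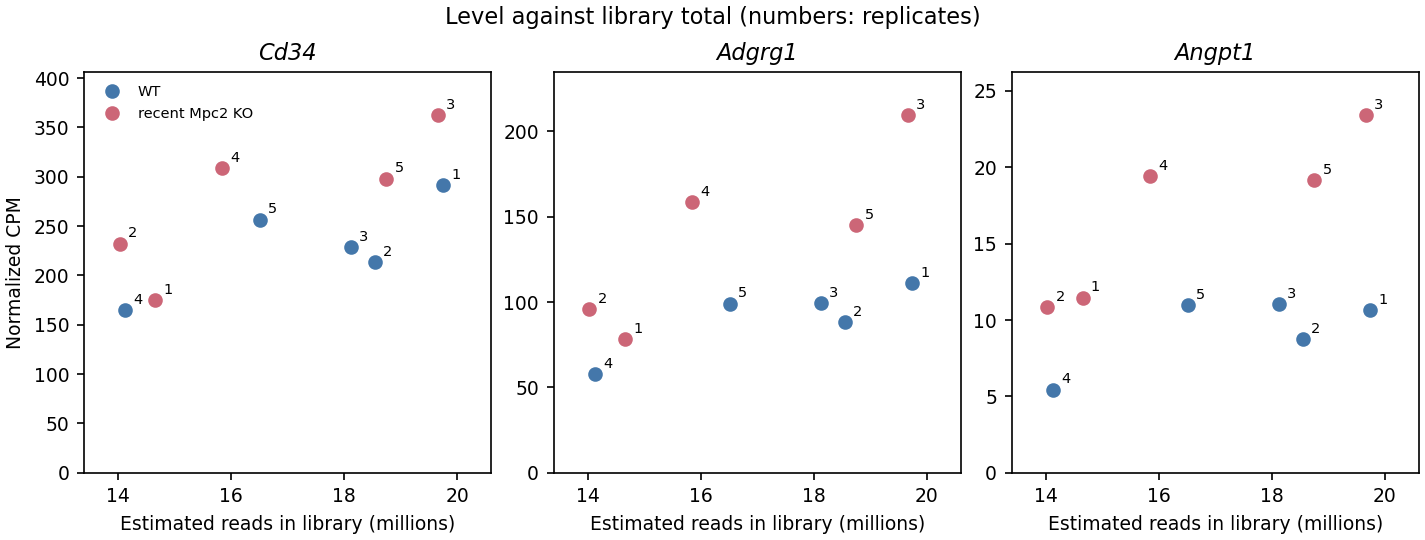
Normalized CPM of *Cd34*, *Adgrg1*, and *Angpt1* against the estimated reads of each library, with WT samples in blue, recent *Mpc2* KO samples in red, and numbers for the replicates. WT replicate 4 and recent KO replicates 1 and 2, the smallest libraries, hold the lowest values of their groups for *Adgrg1* and *Angpt1*.

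*Adgrg1* and *Cd34* are each read from several annotated transcripts, and the shares of reads between these were compared for the genes with at least 50 reads in each sample. The stretch upstream of *Cd34* and those upstream of both *Adgrg1* starts are shown, since these 2 genes were high and low in the same samples and the starts of *Adgrg1* were used in different shares. The stretch upstream of *Sox4* is shown beside them as another gene with that order of samples. Each runs 5′ to 3′ on the gene's strand over 220 bases, ending 31 bases before the start given by RefSeq (GRCm38.p6), and capitals mark a match to a motif named in the next paragraph. They lie at chr1:194938571-194938790 (*Cd34*, plus), chr8:94976859-94977078 (*Adgrg1* upstream start, plus), chr8:94984149-94984368 (*Adgrg1* downstream start, plus), and chr13:28953730-28953949 (*Sox4*, minus).
Cd34: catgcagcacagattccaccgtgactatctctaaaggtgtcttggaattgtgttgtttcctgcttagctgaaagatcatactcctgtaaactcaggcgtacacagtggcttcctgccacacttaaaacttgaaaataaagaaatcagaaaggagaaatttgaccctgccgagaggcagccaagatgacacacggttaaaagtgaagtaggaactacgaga
Adgrg1 upstream start: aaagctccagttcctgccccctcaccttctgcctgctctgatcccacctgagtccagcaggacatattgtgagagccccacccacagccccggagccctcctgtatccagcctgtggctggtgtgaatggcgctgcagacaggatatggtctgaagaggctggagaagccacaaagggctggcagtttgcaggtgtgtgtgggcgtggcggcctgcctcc
Adgrg1 downstream start: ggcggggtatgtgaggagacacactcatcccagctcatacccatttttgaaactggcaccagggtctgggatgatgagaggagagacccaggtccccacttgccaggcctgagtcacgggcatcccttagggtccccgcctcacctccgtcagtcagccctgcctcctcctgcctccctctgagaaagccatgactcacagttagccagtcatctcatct
Sox4: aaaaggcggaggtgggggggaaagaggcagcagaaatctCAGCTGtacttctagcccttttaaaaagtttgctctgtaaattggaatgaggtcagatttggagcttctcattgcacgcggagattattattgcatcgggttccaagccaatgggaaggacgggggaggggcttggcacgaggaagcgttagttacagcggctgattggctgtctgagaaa

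The motifs searched on both strands were AGATAA (bound by factors of the GATA family, in 9.04% of 32851 RefSeq stretches of this length), TGTGGT (RUNX factors, 12.7%), CCGGAA (ETS factors, 9.47%), CAGCTG (E-box, 11.4%), and TGACAG (MEIS factors, 14.2%). *Cd34* and both *Adgrg1* stretches held none of these letters in the windows shown, and *Sox4* held CAGCTG 1 time. The GC content was 43.6% for *Cd34*, 61.4% and 58.6% for the upstream and downstream starts of *Adgrg1*, and 50% for *Sox4*, against 52.8% over all stretches. Entries were at hand for 6 of the 10 genes.

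*Cd34* was split in much the same way in each sample. Cd34-201, which encodes 382 residues, took 57.2% ± 1.87 of the reads of the gene in WT samples and 57.5% ± 3.17 in recent KO samples (SD, n = 5 each). Cd34-202, which encodes 325 residues and lacks most of the cytoplasmic tail, took 41.8% ± 2.14 and 41.7% ± 3.02. The exact permutation p was 0.881 and 0.960 for these transcripts, adjusted 1.00 for both over the 9 transcripts tested. The overall level of *Cd34* thus varied 2.20-fold between the lowest and the highest sample while its split between transcripts varied little.

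*Adgrg1* was read mainly from Adgrg1-202, which starts at 94977107, and in part from Adgrg1-201, which starts at 94984371. Both encode the same number of residues, 687. In WT replicates 1 to 5, Adgrg1-201 took 16.1%, 12.1%, 14.7%, 41.3%, and 15.6% of the reads of the gene, and in recent KO replicates 1 to 5 it took 10.5%, 14.8%, 11.7%, 11.2%, and 10.5%. WT replicate 4 stood far above the other samples, with 307 of 743 reads (95% Wilson interval 37.8% to 44.9%). In this sample Adgrg1-201 came to 23.9 CPM, the highest of the WT samples, and Adgrg1-202 to 33.8 CPM, against 74.9 to 92.1 CPM in the other WT samples.

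The mean share of Adgrg1-201 was 20% ± 12 in WT samples and 11.7% ± 1.77 in recent KO samples (SD, n = 5 each). The exact two-sided permutation p was 0.0238, adjusted 0.107 over the 9 transcripts, so no share passed. Without WT replicate 4 the WT mean was 14.6% ± 1.77 and the difference shrank from −8.23 to −2.89 percentage points (exact permutation p = 0.0476, adjusted 0.214). Counted as CPM, Adgrg1-202 ran from 70.1 to 182 in recent KO samples and from 33.8 to 92.1 in WT samples (exact permutation p = 0.111), and Adgrg1-201 from 8.23 to 24.4 and from 10.7 to 23.9 (exact permutation p = 0.857). The higher mean of *Adgrg1* in recent KO samples therefore lay in reads assigned to Adgrg1-202, for which the recent KO mean was 1.63 times the WT mean.

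**Figure D5:**
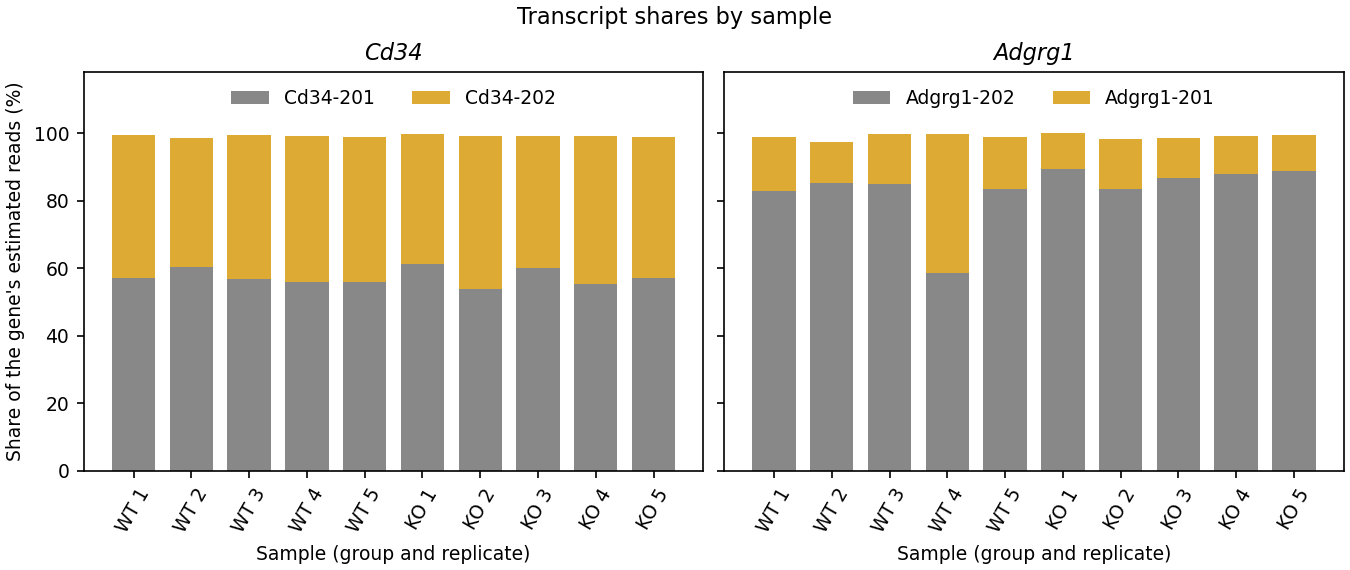
Share of estimated reads (%) of *Cd34* and *Adgrg1* assigned to their main transcripts in each sample; the remainder up to 100% went to minor transcripts. Adgrg1-201 takes 41.3% in WT replicate 4 and 10.5% to 16.1% in the other samples.

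For *Angpt1*, Angpt1-201 (498 residues) held 92.5% to 100% of the reads of a WT sample and 94.1% to 98.6% of those of a recent KO sample. The 4 *Ly6a* transcripts tested, which all encode 134 residues, varied widely within groups. Ly6a-201, for example, ranged from 0% to 56.2% over WT samples and reached 54.0% among recent KO samples, also from 0%, so that the division of *Ly6a* reads was not settled at 104 to 246 reads per sample.

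The wider set of 50 stem and multipotent progenitor genes, which holds none of the 10, was examined in the same comparison. Of its 41 tested genes, 33 had a log2 fold change above 0 and 8 below, with a median of 0.25. At an unadjusted p under 0.05, 12 were higher and 2 lower in recent KO samples, against 4.89% and 5.35% of all genes tested.

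Some genes of the wider set were picked for a low p after their values were seen. *Flt3*, the receptor of multipotent progenitors, had 10.2 to 15.2 CPM in WT samples and 18.2 to 37.8 CPM in recent KO samples. Its groups did not overlap, as for 2.43% of all genes tested, and its log2 fold change was 0.98 (adjusted p = 0.0597 by edgeR). *Gfi1b*, a transcriptional repressor active in the erythroid and megakaryocyte branch, had 0.855 to 3.49 and 2.53 to 6.21 CPM (adjusted p = 0.186 by edgeR). *Msi2*, an RNA-binding protein of stem cells, had 5.44 to 8.32 and 7.83 to 17.2 CPM (adjusted p = 0.199 by edgeR), and *Tal1*, a factor of stem and erythroid cells, had 2.33 to 4.43 and 3.78 to 6.79 CPM (adjusted p = 0.238 by edgeR). These genes were higher in recent KO samples. *Myb* (log2 fold change −0.17, adjusted p = 0.430 by edgeR) and *Runx1* (−0.18, adjusted p = 0.447 by edgeR) were lower, at an unadjusted p under 0.05.

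The most abundant genes of the wider set per length in WT samples were *Ifitm1* (574 TPM), *Cd48* (229 TPM), *Lmo2* (213 TPM), *Cd9* (69.3 TPM), and *Cd27* (55.7 TPM), whose protein had served to enrich the cells. Their log2 fold changes ran from 0.12 for *Lmo2* to 0.27 for *Ifitm1*, with adjusted p from 0.540 to 0.884 by edgeR. At the other end, *Hoxb8* had 0 reads in all samples, *Robo4* stayed at or under 0.0594 CPM, and *Fgd5*, a marker of long-term stem cells, stayed at or under 0.147 CPM. *Nkx2-3*, a homeobox gene under the count filter and likewise named after its values were seen, had 0 to 0.0777 CPM in WT samples. Recent KO samples had 0.155 to 0.731 CPM, from the floor of 3 counts upward. *Nkx2-3* was not tested, and the groups did not overlap for 2.43% of the genes that were.

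Genes outside the 10 were compared with the same order of samples. Against the mean standardized level of the 8 genes, 35 of its 41 tested genes had r above 0 within groups, with a median of 0.50, while over all other genes tested the median was 0.0046. *Lmo2* (0.94) and *Meis1* (0.94) came nearest. Some lists of other cell types had positive medians too. The median r was 0.64 for the 3 endothelial markers tested, of which *Tie1* is also in the wider set, and 0.59 for the 5 mast and basophil markers. It was 0.38 for the 7 erythroid markers and 0.11 for the 3 megakaryocyte markers. The median was −0.49 for the 8 mature neutrophil markers and −0.245 for the 6 macrophage and dendritic markers. Among all other genes tested, the 5 whose levels were most like the 8 genes were *Tspan13* (r = 0.977), *1500009L16Rik* (0.974), *Ywhaq* (0.953), *Camk1* (0.952), and *Dapp1* (0.952), a tetraspanin, an unnamed transcript, a 14-3-3 protein, a kinase, and an adaptor of lymphoid and myeloid signaling. The 5 least like them were *Mcemp1* (−0.980), *Gstm1* (−0.974), *Pgd* (−0.973), *Gpi1* (−0.971), and *Gsr* (−0.967). *Gpi1* and *Pgd* encode enzymes of glycolysis and of the pentose phosphate pathway, and *Gstm1* and *Gsr* enzymes of glutathione chemistry. *Tspan13* ran from 25.6 CPM in WT replicate 4 to 78.7 CPM in recent KO replicate 3, and *Gstm1* from 2976 to 945 CPM between the same libraries. These r values chose the genes and are given as a description over 10 samples, which share their libraries.

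Markers of GMPs had log2 fold changes of the other sign. Of 19 GMP markers tested, 16 had a log2 fold change below 0 and 13 had an unadjusted p under 0.05 in that direction, against 5.35% of all genes tested, and 0 passed the adjusted threshold by edgeR. Their median log2 fold change was −0.38. Of the Fc receptor genes of the gate, *Fcgr3* had 357 to 456 CPM in WT samples, and 153 to 318 CPM after the deletion. Its groups did not overlap, as for 2.43% of all genes tested, and its log2 fold change was −0.65 (adjusted p = 0.107 by edgeR). *Fcgr2b*, also of the gate, had 95.6 to 108 and 83.5 to 102 CPM, with a log2 fold change of −0.18 (adjusted p = 0.366 by edgeR). *Mpo* had a log2 fold change of −0.52 (adjusted p = 0.272 by edgeR). Within groups, the median r of the GMP markers with the mean standardized level of the 8 genes was −0.70. In the libraries at the ends of the range, their sum was 131539 CPM in WT replicate 4 and 54740 CPM in recent KO replicate 3, the highest and the lowest of all samples.

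Markers of other cells were compared by their summed levels, beside 276 to 479 CPM in WT samples and 320.5 to 667 CPM in recent KO samples for the 10 genes together. The summed megakaryocyte markers (5 genes, 3 of 3 tested above 0) had 9.64 to 18.3 CPM in WT samples and 21.5 to 31 CPM in recent KO samples. The summed macrophage and dendritic markers (7 genes, 6 of 6 tested above 0, 3 called higher) had 15.5 to 36.1 and 38.2 to 62.5 CPM. The 3 called were *C1qa*, *C1qb*, and *C1qc*, where 0.331% of all genes tested were called. Neither of these sums overlapped between groups. Single genes did not overlap for 2.43% of all genes tested, and no such share was computed for sums. The erythroid markers (8 genes, 6 of 7 tested above 0) summed to 28.7 to 64.4 and 38.1 to 122 CPM. Mature neutrophil markers (8 genes, 6 of 8 above 0) summed to 119 to 427 and 114 to 732 CPM, and mast and basophil markers (5 genes, 2 of 5 above 0) to 148 to 269 and 182 to 319 CPM. The median log2 fold change was 0.57 for megakaryocyte, 1.18 for macrophage and dendritic, 0.91 for erythroid, and 1.21 for mature neutrophil markers. It was −0.20 for mast and basophil markers and 0.26 for the 8 tested genes. In that order, 3 of 3, 4 of 6, 3 of 7, 5 of 8, and 1 of 5 markers were higher at an unadjusted p under 0.05 (edgeR). Also 1 erythroid and 1 mast and basophil marker were lower. Over all genes tested, 4.89% were higher and 5.35% lower at that p. Per length, *S100a8*, a calprotectin subunit of neutrophils (760 TPM), *S100a9*, its partner (209 TPM), and *Mcpt8*, a basophil protease (189 TPM), stood above *Cd34* in the WT mean.

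Endothelial cells and stroma also express *Cd34*, *Esam*, or *Angpt1*, and their markers were summed too. The 7 endothelial markers summed to 21.4 to 26.4 CPM in WT samples and 20.2 to 27.3 CPM in recent KO samples, with *Cdh5* at 0 in all samples and *Kdr* at or under 0.277 CPM. The 5 stromal markers summed to 2.64 to 4.60 and 3.53 to 5.36 CPM, with *Cxcl12* at or under 0.211 CPM. Most of that sum was *Pdgfrb*, with 2.02 to 3.65 and 3.04 to 4.95 CPM. The 9 lymphoid markers summed to 0.891 to 1.56 and 0.773 to 2.74 CPM. The part of the GMP, megakaryocyte, macrophage, erythroid, endothelial, and stromal markers in the levels of the 10 genes was not tested.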

How the data were processed

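RNA-seq of sorted CD45.2+ GMPs was analysed for 5 WT and 5 recent *Mpc2* KO samples, grouped by their titles. RNA was amplified with SMARTseq V4, which does not mark strand, and sequenced in pairs on a NovaSeq. The authors quantified Gencode M27 (GRCm39) transcripts with Salmon (1.5.1 in the submitters' processing notes). They deposited estimated counts per transcript, which are not normalized, and TPM, scaled to transcript length and library. Their deposited DESeq2 table (mean, fold change, error, and p-values) was not used.

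Transcripts were matched without version to GENCODE M21 on GRCm38 (137161 of 140789, 97.4%), the build of every position here. Unmatched transcripts held 0.348% to 0.390% of reads. Estimated counts were summed per gene and rounded. Levels are TMM-normalized CPM. edgeR 4.0.16 (quasi-likelihood, R 4.3.3) tested the 12381 genes passing filterByExpr (minimum count 10), with Benjamini-Hochberg adjustment at 0.05 and no covariate. Correlations used log2 CPM with a prior count of 2. The steps were tested on simulated data. Replicates are separate mice or pools, and none were near duplicates (chi-square per gene 6.83 to 46.4).

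Alternatives comprised scaling by RLE, upper quartile, or library size, other count filters, a length offset, robust dispersions, DESeq2 1.42.0, limma 3.58.1 on log2(TPM + 1) and log2(TPM + 0.1), the replicate number as a block, other correlation scales, and each sample left out. The 10 genes and all lists were chosen with earlier results of these data known. Named genes are the 10, of the wider set those called and the 5 highest in TPM, the 5 most and 5 least correlated genes, and *Mpc2*; others were named after their values were seen. A called gene of the wider set is not reported here. Python 3.11.15, scipy 1.17.1, and BLAST 2.17.0 were used.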

Additional observations from a re-analysis of the deposited data

Results flagged for a closer look

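Within each group of 5 samples, values were screened for a sample far from its group by Dixon's test, over the CPM of the 10 genes and the shares of 9 transcripts. Of 38 groups, 5 were singled out, where chance alone gives about 1 in 20, or 1.9. None was a CPM value.

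The widest gap was in *Adgrg1*. In WT replicate 4, Adgrg1-202 took 58.5% of the reads of the gene, against 82.9% to 85.1% in the other WT samples, and Adgrg1-201 took 41.3%, against 12.1% to 16.1%. These are complementary readings of the same 743 reads and count as 1 departure. WT replicate 4 was also among the smallest libraries and held the lowest *Adgrg1*, *Cd34*, and *Angpt1* levels of its group. Their part in the share was not tested.

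Adgrg1-201 also took 14.8% in recent KO replicate 2, against 10.5% to 11.7% in the other recent KO samples, which is within the range of the WT samples. In WT replicate 2, Cd34-201 took 60.4% of *Cd34* reads, against 55.7% to 57.1% in the other WT samples, and Cd34-202 took 38.0%, against 42.3% to 43.4%. Recent KO samples spanned 53.7% to 61.3% for Cd34-201, a range that includes the value of WT replicate 2.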

How the results depend on the processing

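The count of the 8 tested genes with a log2 fold change above 0 was 7 or 8 of 8 with each sample left out, 10 of 10 with DESeq2 and without a filter, and 6 of 8 with the length offset or 6 of 7 with limma. No alternative gave a called transcript share. The number of all genes called moved from 41 to 206 without a filter on low counts, 156 with DESeq2, 25 by limma on log2(TPM + 1), 24 on log2(TPM + 0.1), and 20 with the replicate block. It ranged from 25 to 91 when each sample was left out, with 91 without recent KO replicate 2, 26 without WT replicate 3, and 25 when recent KO replicate 3 or 4 was left out. In the wider set, where 1 gene was called, 2 were with upper quartile or library size scaling, 5 without a filter, 4 with DESeq2, and 0 with a length offset, with limma on either scale, or with the block, and 0 to 3 with each sample left out. The count of the 10 genes at an unadjusted p under 0.05 was 1 with limma on either scale and ran from 1 (without recent KO replicate 3) to 4 (without recent KO replicate 1). Leaving out WT replicate 4 and recent KO replicate 3 together, chosen after seeing the data, gave 18 called genes, 1 of the 8 genes at p under 0.05, and 0 of the wider set. The sign turned for *Mecom* with the length offset (−0.14), for *Mllt3* with the length offset (−0.40) and by limma (−0.17 on log2(TPM + 1), −0.30 on log2(TPM + 0.1)), and for *Sox4* over left-out samples (−0.07 to 0.13) and without both extreme samples (−0.12). The median r of 0.50 was 0.65 on log2(TPM + 1), 0.61 without centering, 0.38 by Spearman's rho, and 0.37 (without recent KO replicate 3) to 0.69 (without WT replicate 5) over left-out samples. Causes were not tested. Same-numbered WT and recent KO samples correlated at −0.18 to 0.06 in their deviations, and 0 of 10 samples correlated best with its own number. The labels do not say that the numbers pair samples, and a weak pairing could be missed in this way. With the replicate block 0 of the 8 genes were called. *Mn1* and *Esam*, with at most 13 reads per sample, were below the count filter.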
